A study of Vitis vinifera with 23 samples.

Results

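Proanthocyanidins, the condensed tannins of grape, are chains of flavan-3-ols that give seeds and skins their astringency. The enzymes dihydroflavonol reductase (DFR) and leucoanthocyanidin dioxygenase (LDOX) make intermediates of the flavonoid pathway. Leucoanthocyanidin reductase (LAR) leads from the product of DFR to catechin, and anthocyanidin reductase (ANR) from the product of LDOX to epicatechin. MYB transcription factors control when these enzymes are transcribed, and grape berries are known to make most of their tannin early, before ripening starts. The transcripts described here are those of 9 genes, of 29970 in the data, chosen by their identifiers. They are 4 MYB regulators, MybPA1 (Vv15s0046g00170), MybPA2 (Vv11s0016g01320), MYB5a (Vv08s0007g07230) and MYB5b (Vv06s0004g00570), and 5 enzyme genes, DFR (Vv18s0001g12800), LDOX (Vv02s0025g04720), LAR1 (Vv01s0011g02960), LAR2 (Vv17s0000g04150) and ANR (Vv00s0361g00040).

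The berries came from field-grown Vitis vinifera cv. Sauvignon blanc, a white grape, which makes no anthocyanins in its skin. Bunches were either control, left shaded by the canopy, or exposed, where the leaves and lateral shoots around the bunches had been taken away on 1 side of the row. Whole berries without seeds, skin and pulp together, were sampled when pea-sized (EL31), before véraison (EL33), at véraison (EL34 in the labels) and when ripe (EL38). The 23 samples form 8 groups, with 2 samples in EL38 control and 3 in each of the other 7 groups. Samples of a group came from separate panels of vines in 1 vineyard, so the spread between them is that between panels and not between seasons or sites. Because whole berries were used, skin and pulp cannot be told apart, nor fewer cells of a type from less RNA per cell.

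Values are FPKM, fragments of a transcript scaled by its length and by the mapped fragments of the sample, so levels of different genes are compared per length. Differences are log2 fold changes on the log2(FPKM + 0.1) scale, tested with limma in 1 model of all samples. Adjustment of p (Benjamini-Hochberg) ran over the 20205 genes whose mean reached 1 FPKM in a group or more, and a gene was called at an adjusted p of at most 0.05. All 9 genes passed this filter. Relative depth, estimated from the lowest FPKM values, ranged from 0.695 to 2.63 times the median sample. Marker genes mostly followed the stage labels. The summed FPKM of 4 photosynthesis genes went from 4168 to 7816 at EL31 down to 202 to 344 at EL38, and that of 6 ripening genes from 258 to 601 at EL31 up to 53953 to 73880 at EL34. In ripe EL38 berries the ripening genes were lower than at EL34, at 22652 to 40751 FPKM.

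Some samples stood apart in markers of other tissue or of another stage. Fits without EL33 control 1 and EL34 exposed 2 and 3, or without EL33 exposed 1 and 3, are given beside the results they change; they leave 1 sample in EL34 exposed or EL33 exposed, which is assumed to vary like the other groups. Transcripts of 10 seed storage genes, all among those the study's tables list as changed in these same samples, summed to 1.10 to 1.78 FPKM in EL31 control samples and to 35.0, 2.81 and 14.8 FPKM in EL31 exposed samples. At EL33 they reached 1745 FPKM in control sample 1 against 18.0 and 4.42 FPKM in the other two, and exposed samples held 150.5, 1.53 and 19.2 FPKM. At EL34 the sums were 215, 202 and 193 FPKM in control and 176, 1669 and 498 FPKM in exposed samples, and at EL38 all samples lay between 29.1 and 38.9 FPKM. Most of the EL34 control and EL38 sums came from 1 gene, Vv14s0066g00700, singled out after its values were seen, which held 190.6 to 212.8 FPKM in EL34 control and 149.2 to 167.1 FPKM in EL34 exposed samples. The other 9 seed storage genes summed to 2.05, 2.29 and 1.91 FPKM in EL34 control and to 12.2, 1520 and 330 FPKM in EL34 exposed samples, so that all 3 exposed samples lay above the control samples. The ripening genes summed to 10698 and 7392 FPKM in EL33 exposed samples 1 and 3, whereas exposed sample 2 and the 3 control samples lay between 687 and 1068 FPKM. Between 0 and 8 of the 10 seed storage genes were at 0 in a sample, and between 0 and 2 of the 6 ripening genes.

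**Figure D1:**
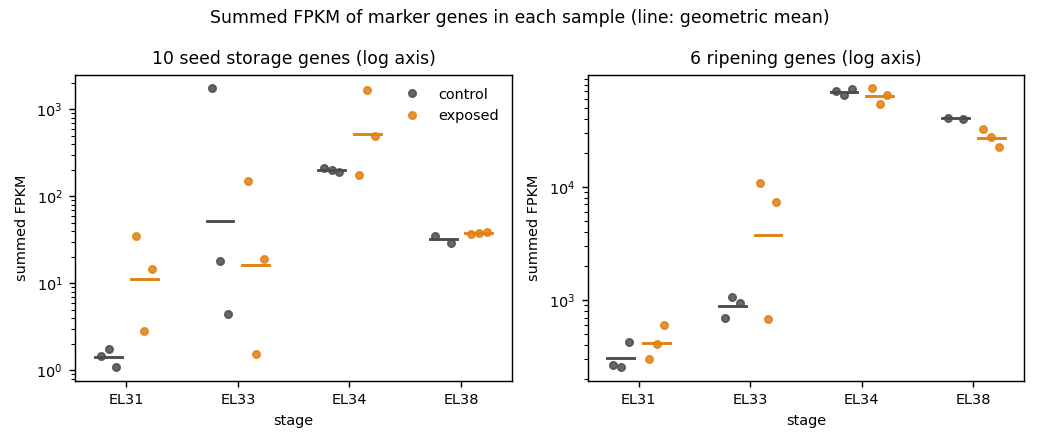
Summed FPKM of 10 seed storage genes and of 6 ripening genes in each sample, on log axes, by stage, with control in grey and exposed in orange; each point is a sample and each line a geometric mean. EL33 control 1 and EL34 exposed 2 stand highest in seed storage transcripts, at 1745 and 1669 FPKM, and EL33 exposed 1 and 3 hold 10698 and 7392 FPKM of ripening transcripts.

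More of these genes were called between stages than between exposed and control berries. In control berries 7 of the 9 were lower at EL33 than at EL31 and none was called higher, where 20.6% of all genes tested were called lower and 11.5% higher. In exposed berries 8 of the 9 were lower over the same interval, against 20.6% of all genes lower and 11.7% higher, or 5 of the 9 after quantile normalization, when LDOX, LAR1 and MYB5a were no longer called. The median log2 fold change of the 9 genes was -1.43 in control and -0.76 in exposed berries, beside -0.05 and -0.07 over all genes tested. The gene set did not stay together after that: from EL33 to EL34, 5 genes rose in each treatment (MybPA2, MYB5b, DFR, LDOX and LAR1), while LAR2 and ANR fell in both and MYB5a fell in exposed berries. In exposed berries MybPA2, DFR, MYB5b and MYB5a were no longer called at this step without EL33 control 1, EL34 exposed 2 and EL34 exposed 3 (adjusted p = 0.109, 0.114, 0.0843 and 0.295). Of all genes, 23% were called higher and 24.2% lower at this step in control berries, and 21.4% and 21% in exposed berries. From EL34 to EL38 MYB5b alone of the 9 rose and 7 fell in each treatment, ANR being the gene that was not called, against 21.8% of all genes higher and 23.6% lower in control berries and 25.2% and 29.5% in exposed berries.

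**Figure D2:**
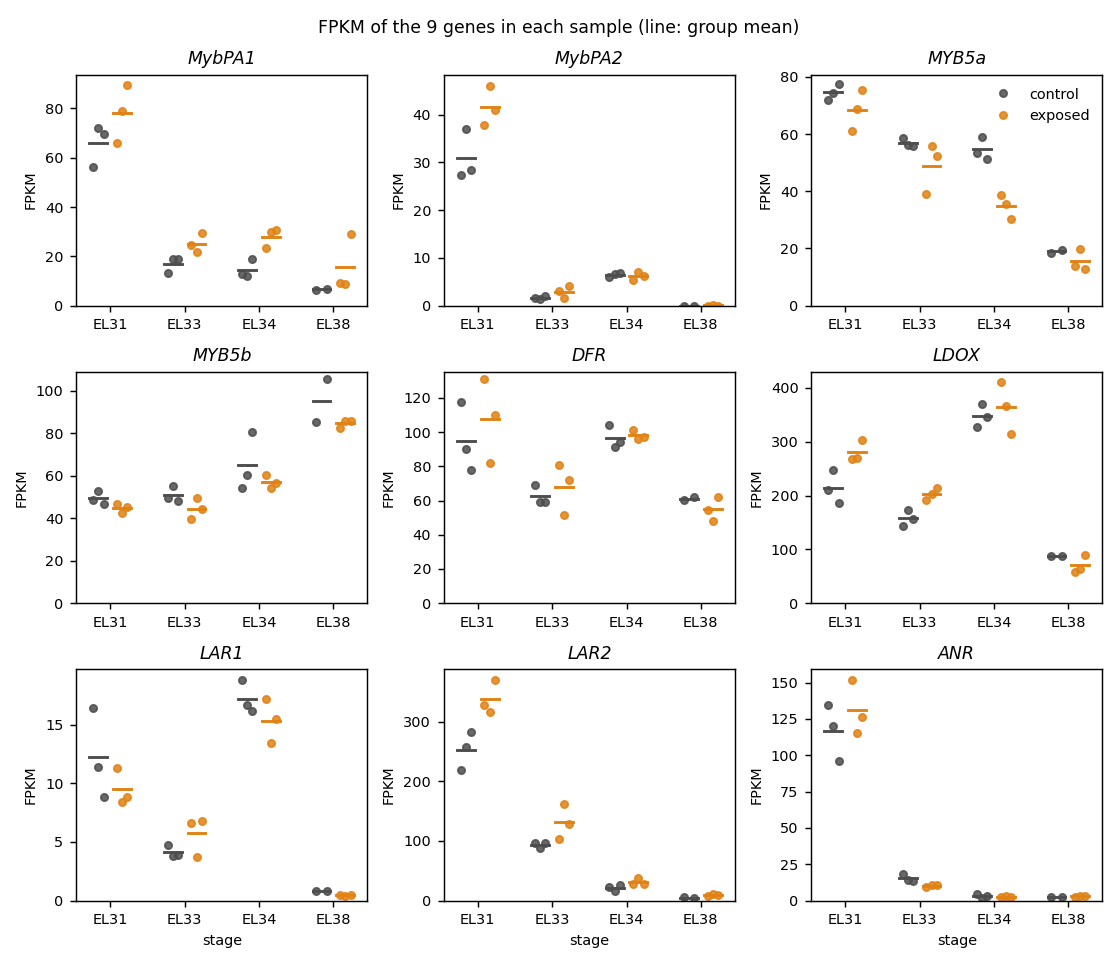
FPKM of each of the 9 genes in every sample, by stage, on linear axes from 0, with control in grey and exposed in orange; points are samples and lines are group means. ANR, LAR2 and MybPA2 were highest at EL31, LDOX and LAR1 at EL34, and MYB5b at EL38.

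Of the regulators, MybPA1 and MybPA2 are the pair known in grape to switch on proanthocyanidin genes, MybPA1 in seeds and in berries near véraison and MybPA2 in young skins. MybPA1 stood at 56.3, 72.1 and 69.6 FPKM in EL31 control berries and at 13.3, 18.8 and 18.9 FPKM in EL33 control berries. The groups did not overlap, and the gene fell 3.89-fold (log2 fold change -1.96, SE 0.33, limma adjusted p = 0.000146). It stayed at 12.8, 12.1 and 18.9 FPKM at EL34 and was at 6.50 and 6.87 FPKM at EL38 (log2 fold change from EL34 -1.08, SE 0.37, adjusted p = 0.0220). This last call was lost without any of 3 samples: without EL38 control 1, EL38 control 2 or EL34 control 3 the adjusted p was 0.102, 0.0796 and 0.0845. It was also lost after quantile normalization (adjusted p = 0.0557) and with a term for the range of the sample number in the labels (adjusted p = 0.0587). For exposure at EL38 that term leaves exposed 1 alone against the control samples, because only exposed 2 and 3 fall in the other range. In exposed berries the same step was -1.06 (SE 0.33, adjusted p = 0.0108), and without EL38 exposed 1 or 2 its adjusted p was 0.0642 and 0.0743, with the sample number term 0.0685, and without EL33 control 1, EL34 exposed 2 and EL34 exposed 3 0.206.

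MybPA2 was the regulator with the steepest course. It was at 27.4, 37.0 and 28.3 FPKM in EL31 control berries and at 1.55, 1.46 and 2.07 FPKM in EL33 control berries, 17.3-fold lower (log2 fold change -4.11, SE 0.29, adjusted p = 8.75e-09). At EL34 it was back at 5.98, 6.63 and 6.86 FPKM, 3.71-fold above EL33 (log2 fold change 1.89, SE 0.29, adjusted p = 3.35e-05). The level at véraison thus stayed below every EL31 sample and above every EL33 sample. In ripe berries MybPA2 was listed at 0 in 4 of 5 samples and at 0.0957 FPKM in exposed sample 2, so no fold is given for EL38.

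MYB5a and MYB5b are related regulators of the general flavonoid pathway in grape, and their courses ran in opposite directions. MYB5a was at 71.9, 74.3 and 77.6 FPKM in EL31 control berries, at 58.8, 56.3 and 55.7 FPKM at EL33, at 53.6, 59.1 and 51.4 FPKM at EL34 and at 18.5 and 19.4 FPKM at EL38. In control berries only its last step was called (log2 fold change -1.52, SE 0.17, adjusted p = 1.03e-06), while the step from EL31 to EL33 had an adjusted p of 0.0546. That step was called without EL33 exposed 1, EL33 exposed 2, EL38 exposed 2 or EL38 exposed 3 (adjusted p = 0.0318, 0.0483, 0.0205 and 0.0419), which enter it only through the shared spread. In exposed berries MYB5a fell by 0.49 to EL33 and by 0.48 more to EL34 on the log2 scale (adjusted p = 0.0163 and 0.0147). The first of these had an adjusted p of 0.0719 and 0.103 without EL31 exposed 3 or EL33 exposed 1, and the second of 0.0814, 0.0569 and 0.0784 without EL33 exposed 2, EL33 exposed 3 or EL34 exposed 3. MYB5b was at 48.6, 52.9 and 46.7 FPKM in EL31 control berries and at 49.7, 55.1 and 48.1 FPKM at EL33, 2 groups that overlapped. It was at 54.5, 60.2 and 80.6 FPKM at EL34 and at 85.3 and 105.7 FPKM at EL38, 1.48-fold above EL34 (log2 fold change 0.56, SE 0.14, adjusted p = 0.00246). Without EL38 control 2 this increase had an adjusted p of 0.0637, but the same step in exposed berries (0.57, SE 0.12, adjusted p = 0.000694) was called without any 1 sample. The rise of MYB5b from EL33 to EL34 was smaller (0.33 in control and 0.36 in exposed berries, adjusted p = 0.0312 and 0.0231). In control berries it was not called without EL33 control 1, EL33 control 3 or EL34 control 3 (adjusted p = 0.0786, 0.1004 and 0.220). In exposed berries it was not called without EL33 exposed 1 or 3 (adjusted p = 0.101 and 0.0530) or without EL34 exposed 1 or 3 (adjusted p = 0.0824 and 0.0502). Nor was it called with median-of-ratios scaling (adjusted p = 0.0532 and 0.0578 in control and exposed berries) or quantile normalization (0.164 and 0.0758).

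The ratio of MYB5b to MYB5a was taken within each sample, and its group mean climbed with every stage in both treatments. In single samples the ratio lay between 0.601 and 0.767 at EL31, between 0.846 and 1.02 at EL33, between 1.02 and 1.88 at EL34 and between 4.33 and 6.70 at EL38. The EL31 and EL33 ranges did not overlap, and EL38 lay above all other samples. The EL33 and EL34 ranges overlapped, with EL33 exposed 1 (1.024) above EL34 control 1 and 2 (1.017 and 1.018).

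DFR and LDOX, the steps shared by tannin and anthocyanin synthesis, dipped at EL33 and recovered at véraison. DFR varied least over development of the enzyme genes. In control berries it was at 117.4, 89.8 and 77.8 FPKM at EL31, at 68.9, 59.2 and 59.4 FPKM at EL33, at 104.2, 91.2 and 94.1 FPKM at EL34 and at 60.3 and 61.8 FPKM at EL38. Its fall to EL33 was 1.50-fold (log2 fold change -0.59, SE 0.18, adjusted p = 0.0169) and its rise to EL34 1.54-fold (0.63, SE 0.18, adjusted p = 0.00738). The fall had an adjusted p of 0.106, 0.0556 and 0.0563 without EL31 control 1, EL33 control 2 and EL33 control 3. From EL34 to EL38 DFR fell 1.58-fold (-0.66, SE 0.20, adjusted p = 0.0117), with 0.0656 and 0.0526 when EL38 control 1 or 2 was left out. In exposed berries the 3 steps were -0.66, 0.55 and -0.84 (adjusted p = 0.00819, 0.0184 and 0.000633); the first had an adjusted p of 0.0540 and 0.0543 without EL31 exposed 1 or EL33 exposed 2, and the second of 0.125 and 0.0532 without EL33 exposed 2 or EL34 exposed 1.

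LDOX was the most abundant of the 9 transcripts at EL34 and stood higher there than in any green or ripe sample. Control berries held 210.6, 248.0 and 185.9 FPKM at EL31, 143.5, 173.2 and 155.5 FPKM at EL33, 326.8, 370.9 and 345.5 FPKM at EL34 and 88.1 and 87.3 FPKM at EL38. The rise at véraison was 2.21-fold in control (log2 fold change 1.15, SE 0.14, adjusted p = 3.46e-06) and 1.79-fold in exposed berries (0.84, SE 0.14, adjusted p = 0.000122), and the fall after it 3.96-fold and 5.25-fold (adjusted p = 2.40e-08 and 2.95e-10). The earlier fall from EL31 to EL33 was the weakest step, at -0.44 in control and -0.47 in exposed berries (adjusted p = 0.0224 and 0.0162). In control berries it was not called without EL31 control 1 or 2 (adjusted p = 0.0504 and 0.115) or without EL33 control 1 or 3 (adjusted p = 0.0855 and 0.0585). In exposed berries it was not called without EL31 exposed 3 or EL33 exposed 1 (adjusted p = 0.0664 and 0.0560). It also depended on scaling: after quantile normalization, which moved the median of all genes from -0.05 to 0.10 at this step in control berries and the share of called genes that were higher from 35.9% to 57.4%, LDOX had an adjusted p of 0.152. In exposed berries the same scaling moved that share from 36.2% to 58.3% and gave LDOX an adjusted p of 0.158. Median-of-ratios scaling gave 0.0660 and 0.0677.

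The 2 LAR genes, which encode enzymes for the same reaction, followed different courses. LAR2 fell at every step. It was at 218.3, 258.2 and 282.5 FPKM in EL31 control berries, at 96.6, 87.4 and 96.3 FPKM at EL33, at 23.5, 16.3 and 25.5 FPKM at EL34 and at 5.40 and 4.46 FPKM at EL38. No neighbouring groups overlapped, and the falls were 2.69-fold, 4.35-fold and 4.29-fold (adjusted p = 6.63e-06, 5.00e-08 and 1.86e-07). LAR1 was at 16.4, 11.4 and 8.87 FPKM at EL31, at 4.78, 3.79 and 3.89 FPKM at EL33, at 18.8, 16.7 and 16.2 FPKM at EL34 and at 0.799 and 0.791 FPKM at EL38 in the same samples. It fell 2.82-fold, rose 4.08-fold and fell 19.3-fold (adjusted p = 4.95e-05, 1.04e-06 and 6.41e-10), with the groups of each step apart. In exposed berries the first fall of LAR1 was 1.69-fold (adjusted p = 0.0148), and its adjusted p was 0.0718 and 0.0953 without EL31 exposed 1 or EL33 exposed 2.

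The FPKM of LAR2 was 13.3 to 41.8 times that of LAR1 at EL31 and 15.5 to 43.0 times at EL33. At EL34 the ratio was 0.978 to 2.75, so that both genes were near the same level per length. In ripe berries LAR2 again exceeded LAR1, 5.64- and 6.76-fold in the 2 control samples and 17.9- to 28.5-fold in the 3 exposed samples. The control and exposed ratios overlapped at EL31 and EL33, and did not overlap at EL34 (0.978 to 1.57 and 1.64 to 2.75) or EL38. The EL38 ratios rest on low LAR1 values, 0.366 to 0.799 FPKM, and the ratios were not tested.

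**Figure D3:**
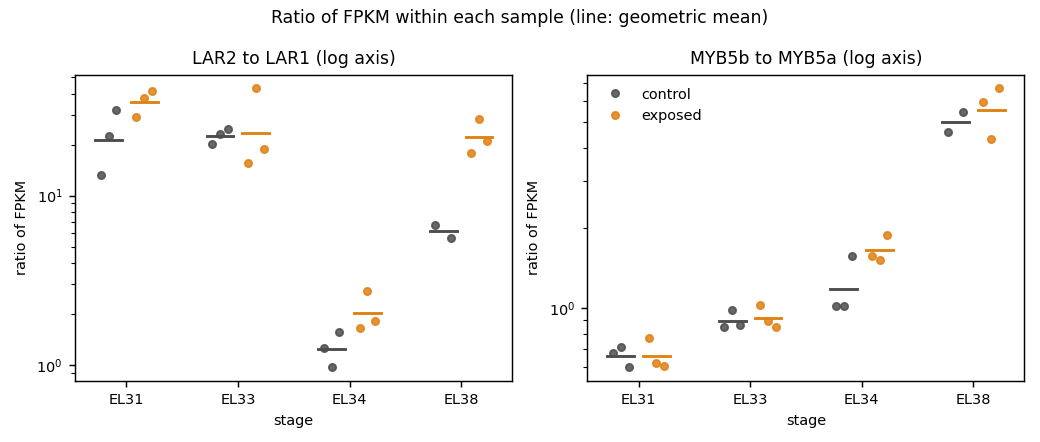
Ratio of FPKM of LAR2 to LAR1 and of MYB5b to MYB5a within each sample, by stage, on log axes, with control in grey and exposed in orange; points are samples and lines geometric means. LAR2 to LAR1 drops to 0.978 to 2.75 at EL34 and returns to 5.64 to 28.5 at EL38, while MYB5b to MYB5a climbs from 0.601 to 0.767 at EL31 to 4.33 to 6.70 at EL38. LAR1 was below 1 FPKM in every EL38 sample.

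ANR, the enzyme of the epicatechin branch, had the steepest fall of the enzyme genes from EL31 to EL33. It stood at 134.3, 120.1 and 95.7 FPKM in EL31 control berries, at 18.0, 14.2 and 13.5 FPKM at EL33, at 4.67, 1.81 and 3.003 FPKM at EL34 and at 2.12 and 2.37 FPKM at EL38. It fell 7.60-fold to EL33 (log2 fold change -2.93, SE 0.23, adjusted p = 3.66e-08) and 4.99-fold more to EL34 (-2.32, SE 0.23, adjusted p = 3.42e-07). In exposed berries these falls were 12.7-fold and 3.72-fold (adjusted p = 2.97e-09 and 4.94e-06). From EL34 to EL38 the groups overlapped and the log2 fold change was -0.38 (95% interval -0.93 to 0.17) in control berries; without EL34 control 2 it was -0.72 with an adjusted p of 0.0116.

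**Figure D4:**
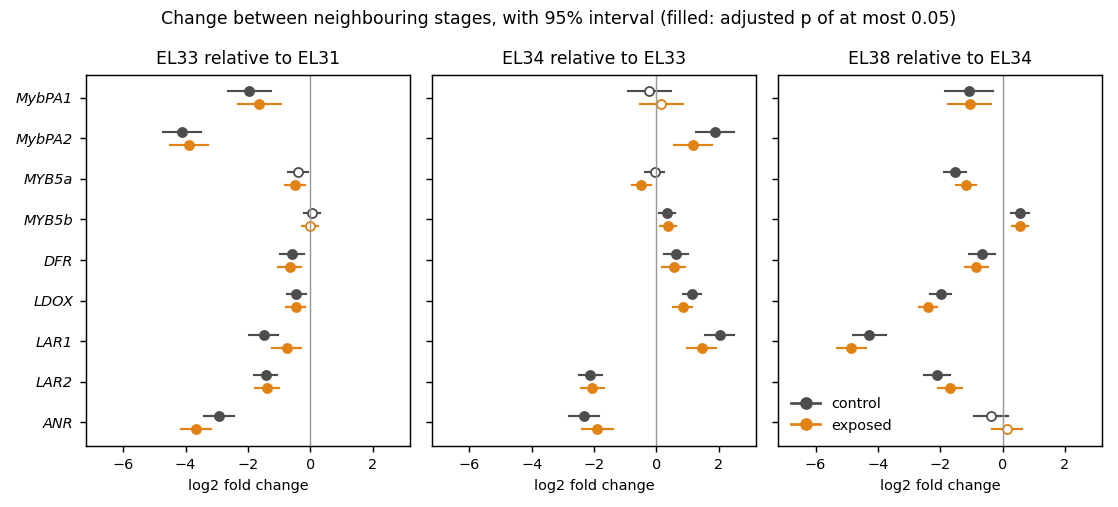
Log2 fold change of each gene between neighbouring stages, with its 95% interval, in control (grey) and exposed (orange) berries; filled points were called at an adjusted p of at most 0.05, and MybPA2 is left out of the last panel because it was listed at 0 in most EL38 samples. LAR1 and LDOX rise from EL33 to EL34 while LAR2 and ANR fall, in both treatments.

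The effect of exposure was small beside these changes and few genes passed the test at a single stage. At EL31 and at EL33 none of the 9 genes was called by limma, where 4.68% and 3.49% of all genes were; 2 and 4 of the 9 had an unadjusted p of at most 0.05, as had 14.2% and 16.4% of all genes. At EL34 1 of 9 was called (MYB5a, lower) against 3.33% of all genes, and at EL38 1 of 9 (LAR2, higher) against 4.79%. Averaged over the 4 stages, 3 of 9 were called against 12.5% of all genes: LAR2 and MybPA1 were higher and MYB5a was lower in exposed berries. The median log2 fold change of the 9 genes was 0.17, 0.37, -0.06 and -0.16 at EL31, EL33, EL34 and EL38 and 0.04 on average, and that of all genes lay between -0.03 and -0.01. The stage contrasts share no samples with each other, but the average is built from them. The last digits of the sample numbers recur at every stage, so the same panels may have been sampled repeatedly. The model takes all samples as independent, and a term for these digits was not fitted for exposure. Deviations of samples with the same treatment and replicate number at neighbouring stages had r from -0.09 to 0.12 over 17 pairs.

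**Figure D5:**
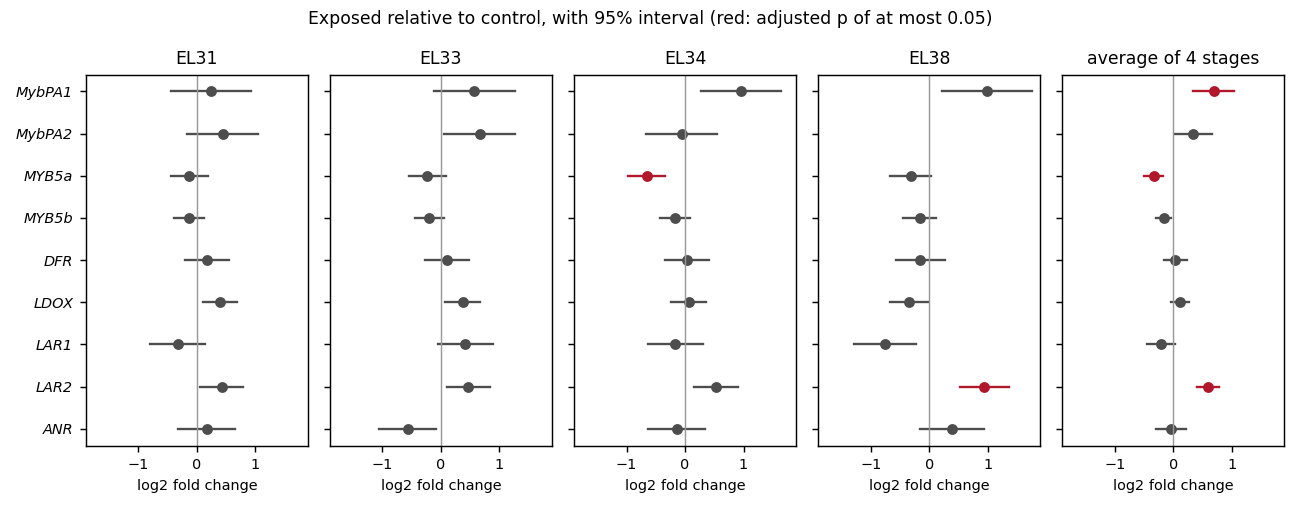
Log2 fold change of exposed relative to control berries for each gene at each stage and averaged over the 4 stages, with 95% intervals; red marks an adjusted p of at most 0.05, and MybPA2 is left out at EL38, where it was listed at 0 in most samples. LAR2 lies at 0.42 to 0.94 at the 4 stages, and MYB5a is the one gene called lower, at EL34 and on average.

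LAR2 was the gene with the steadiest difference. At EL31 it was at 328.0, 316.1 and 369.3 FPKM in exposed and 218.3, 258.2 and 282.5 FPKM in control berries. At EL33 exposed berries held 103.4, 161.3 and 129.2 FPKM and control berries 96.6, 87.4 and 96.3 FPKM. The order was the same at EL34, with 28.2, 37.0 and 28.2 FPKM in exposed and 23.5, 16.3 and 25.5 FPKM in control berries. At EL38 the exposed samples were at 8.18, 10.4 and 10.1 FPKM and the control samples at 5.40 and 4.46 FPKM. Every exposed sample was above every control sample at all 4 stages, which held for 1.12% of all genes tested; at a single stage the groups did not overlap, in one direction or the other, for 21.5% (EL31), 21.1% (EL33), 19% (EL34) and 31% (EL38) of all genes. The log2 fold changes were 0.42, 0.47, 0.53 and 0.94 (SE 0.18, 0.18, 0.18 and 0.20). The first 3 were not called (adjusted p = 0.260, 0.176 and 0.130), and the one at EL38 was (adjusted p = 0.0104), but not without EL38 control 2 (0.81, adjusted p = 0.137), where the lone control sample is assumed to vary like the other groups. It was also not called with EL38 fitted alone (adjusted p = 0.243). With the sample number term, which at EL38 sets exposed 1 alone against the control samples, the difference was 0.72 and was not called. The average was 0.59 (SE 0.09, 1.51-fold, adjusted p = 0.000283), with adjusted p between 0.000125 and 0.00751 under all alternatives tried. A difference of the LAR2 effect between stages was not called (adjusted p = 0.626). Seed storage sums were also higher in exposed than in control samples at EL31 (2.81 to 35.0 against 1.10 to 1.78 FPKM). The same held at EL38 (36.7 to 38.9 against 29.1 to 35.3 FPKM). At EL34 it held only without Vv14s0066g00700, and at EL33 the groups overlapped. The part of seed transcripts in the LAR2 differences was not tested.

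MybPA1, a regulator of proanthocyanidin genes, was also higher in exposed berries on average over the stages. Exposed samples were at 65.8, 79.0 and 89.6 FPKM at EL31, overlapping the control samples at 56.3, 72.1 and 69.6 FPKM. At EL33 they were at 24.5, 21.6 and 29.4 FPKM against 13.3, 18.8 and 18.9 FPKM, and at EL34 at 23.4, 29.9 and 30.8 FPKM against 12.8, 12.1 and 18.9 FPKM. At EL38 exposed samples were at 9.35, 8.62 and 29.1 FPKM, sample 3 far above the other two, and control samples at 6.50 and 6.87 FPKM. From EL33 on, the groups did not overlap. The log2 fold changes were 0.24, 0.57, 0.96 and 0.98 (SE 0.33, 0.33, 0.33 and 0.37; adjusted p = 0.854, 0.416, 0.138 and 0.149), none of them called, and the average was 0.69 (SE 0.17, 1.61-fold, adjusted p = 0.0115). Leaving out EL38 exposed 3, which enters the EL34 difference only through the shared spread, turned the EL34 difference into a call (adjusted p = 0.00728). At EL34 the exposed samples also lay above the control samples in the 9 seed storage genes other than Vv14s0066g00700, and the part of seed transcripts in this difference was not tested. The averaged call was kept in each of the 23 fits without 1 sample. Without EL33 control 1, EL34 exposed 2 and EL34 exposed 3, the samples richest in seed storage transcripts, the average was 0.58 and its adjusted p 0.0895. With a term for the range of the sample number at each stage, the average was 0.49 and was not called. At EL38 this term sets exposed 1 alone against the control samples.

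MYB5a differed in the other direction. At EL34 it was at 38.6, 35.7 and 30.2 FPKM in exposed and 53.6, 59.1 and 51.4 FPKM in control berries, and every exposed sample was below every control sample. The difference was 1.57-fold (log2 fold change -0.65, SE 0.15, adjusted p = 0.0207). It was not called without EL34 exposed 3, EL34 control 1 or EL34 control 2 (adjusted p = 0.0992, 0.0532 and 0.0998), nor in the fit without EL33 control 1 and EL34 exposed 2 and 3, which leaves 1 exposed sample at EL34 (-0.50, adjusted p = 0.437). Nor was it called with the term for the sample number range (-0.59, adjusted p = 0.0678) or with EL34 fitted alone (adjusted p = 0.118). At EL31 MYB5a was at 61.0, 68.9 and 75.4 FPKM in exposed and 71.9, 74.3 and 77.6 FPKM in control berries. At EL33 it was at 38.9, 55.8 and 52.2 FPKM against 58.8, 56.3 and 55.7 FPKM, and at EL38 at 13.9, 19.8 and 12.8 FPKM against 18.5 and 19.4 FPKM. The groups overlapped at these 3 stages, with log2 fold changes of -0.13, -0.23 and -0.32 (adjusted p = 0.808, 0.479 and 0.357). The average was -0.33 (SE 0.08, 1.26-fold, adjusted p = 0.00756), called in each of the 23 fits without 1 sample, but not in that without the 3 samples rich in seed storage transcripts (-0.29, adjusted p = 0.0623).

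The other 2 regulators were not called at any stage. MybPA2 was at 37.9, 46.1 and 41.0 FPKM in exposed and 27.4, 37.0 and 28.3 FPKM in control berries at EL31, with no overlap and a log2 fold change of 0.44 (95% interval -0.17 to 1.05). At EL33 it was at 3.07, 1.56 and 4.09 FPKM in exposed and 1.55, 1.46 and 2.07 FPKM in control berries (0.66, interval 0.05 to 1.27, adjusted p = 0.254). Exposed samples 1 and 3, the higher ones, are those with the high ripening transcripts, and exposed sample 2 lay within the range of the control samples. Without exposed sample 2 the difference was 1.04 and was called (adjusted p = 0.0256). MYB5b was at 42.6 to 46.8 FPKM in exposed and 46.7 to 52.9 FPKM in control berries at EL31, and its log2 fold changes at the 4 stages lay between -0.20 and -0.14 with overlapping groups each time. Their average was -0.17 (interval -0.30 to -0.03, adjusted p = 0.0935); without EL34 control 1 it was -0.20 and called (adjusted p = 0.0395).

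LDOX had the smallest p of the 9 genes in the test of whether the exposure effect differed between stages, and that difference was not called. LDOX was at 268.7, 270.5 and 304.1 FPKM in exposed and 210.6, 248.0 and 185.9 FPKM in control berries at EL31. At EL33 it was at 192.4, 201.9 and 214.7 FPKM in exposed and 143.5, 173.2 and 155.5 FPKM in control berries. The groups did not overlap at these green stages, where the log2 fold changes were 0.40 and 0.37 (SE 0.14 for both, adjusted p = 0.152 and 0.179). At EL34 exposed berries held 412.0, 366.8 and 315.3 FPKM and control berries 326.8, 370.9 and 345.5 FPKM. At EL38 the values were 58.1, 63.5 and 89.1 FPKM against 88.1 and 87.3 FPKM, a log2 fold change of -0.35 (SE 0.16, adjusted p = 0.263). Of all genes, 2.10% were called in the test of the difference between stages, and none of the 9 was: LDOX had an unadjusted p of 0.00963 (adjusted p = 0.145) and LAR1 of 0.0210 (adjusted p = 0.209), the 2 of the 9 with an unadjusted p of at most 0.05, against 15.9% of all genes. LDOX was called without EL38 exposed 3 (adjusted p = 0.0306) and LAR1 without EL33 exposed 2 (adjusted p = 0.0350).

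LAR1 was at 11.3, 8.39 and 8.84 FPKM in exposed and 16.4, 11.4 and 8.87 FPKM in control berries at EL31, and at 6.65, 3.75 and 6.81 FPKM against 4.78, 3.79 and 3.89 FPKM at EL33. These groups overlapped, and at EL33 the exposed samples above the control ones were again samples 1 and 3. At EL34 the values were 17.2, 13.5 and 15.5 FPKM against 18.8, 16.7 and 16.2 FPKM. At EL38 LAR1 was at 0.457, 0.366 and 0.480 FPKM in exposed and 0.799 and 0.791 FPKM in control berries, with no overlap and a log2 fold change of -0.75 (SE 0.25, adjusted p = 0.104). At that stage LAR2 had the opposite sign (0.94). Without EL33 exposed 2, which enters it only through the shared spread, the EL38 difference of LAR1 was called (adjusted p = 0.0452).

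DFR did not differ in a direction that held across stages. Its exposed samples lay at 81.8 to 131.0 FPKM at EL31, 51.6 to 80.9 FPKM at EL33, 96.2 to 101.3 FPKM at EL34 and 48.3 to 62.2 FPKM at EL38, and each range overlapped that of the control samples. The average difference was 0.04 (95% interval -0.16 to 0.23). ANR was at 9.18, 10.9 and 10.5 FPKM in exposed and 18.0, 14.2 and 13.5 FPKM in control berries at EL33, with every exposed sample lower (log2 fold change -0.57, SE 0.23, adjusted p = 0.219). At EL38 every exposed sample was higher, at 2.61, 3.02 and 3.29 FPKM against 2.12 and 2.37 FPKM (0.39, SE 0.26, adjusted p = 0.504). The average for ANR was -0.04 (interval -0.29 to 0.21).

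Other flavonoid genes give the setting of these values. Of 10 genes for the steps before DFR, 1, 4, 2 and 4 were called at EL31, EL33, EL34 and EL38, beside 4.68%, 3.49%, 3.33% and 4.79% of all genes. The median log2 fold change of the 10 was 0.36, 0.37, 0.30 and 0.39. Those called higher included the chalcone synthases CHS1 (Vv14s0068g00930) and CHS2 (Vv14s0068g00920), which open the pathway, and a flavanone 3-hydroxylase (Vv18s0001g14310), which makes the dihydroflavonols that DFR uses. CHS2 had a log2 fold change of 1.21 at EL33 and 1.97 at EL38 (adjusted p = 0.00682 and 0.000410). The flavonoid 3'-hydroxylase Vv09s0002g01090 was lower at EL38 (-1.11, adjusted p = 0.00359), and its effect differed between stages (adjusted p = 0.00711). Another list of 6 genes stood for the flavonol and anthocyanin branches, which draw on the same intermediates. It held flavonol synthases and MYB regulators of the anthocyanin branch, and no anthocyanin enzyme. Beside the same shares of all genes, 1 of these 6 was called at each stage. That gene was the flavonol synthase Vv18s0001g03470, higher in exposed berries by at least 3.79 on the log2 scale.

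Of 5 other genes annotated as DFR or LDOX, 1, 0, 0 and 1 were called at EL31, EL33, EL34 and EL38, both lower, beside 4.68%, 3.49%, 3.33% and 4.79% of all genes. Averaged over the stages, 1 was higher and 1 lower, where 12.5% of all genes were called. Vv08s0105g00380, annotated as an LDOX, was lower in exposed berries at EL31 (94.9 against 135.9 FPKM, log2 fold change -0.52, adjusted p = 0.0388), and Vv11s0118g00360, annotated likewise, was lower at EL38 (18.7 against 31.7 FPKM, -0.76, adjusted p = 0.000806). Of 6 further MYB, bHLH and WD40 genes, none was called at a single stage, while 1, 2, 2 and 3 had an unadjusted p of at most 0.05 at EL31, EL33, EL34 and EL38, beside 14.2%, 16.4%, 15.3% and 17.6% of all genes. On average over the stages, 1 of the 6 was called, Vv15s0046g02560, which was lower (-0.29, adjusted p = 0.00304), where 12.5% of all genes were called.

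Across the 23 samples the 9 genes fell into several patterns, given here as Pearson correlations of log2(FPKM + 0.1) that mainly follow the stages the samples share. LDOX and LAR1 were the closest pair (r = 0.95), and LAR1 was the gene ranked 4 of 20204 for likeness to LDOX. LAR2 and ANR followed (r = 0.90), then MybPA2 with LAR1 and with MYB5a (both r = 0.88). MYB5b was negatively correlated with each of the other 8, from -0.88 (LAR2) to -0.43 (DFR). Once each stage's mean was subtracted, LDOX and LAR1 kept r = 0.26, whereas MybPA1 and LAR2 had r = 0.68, DFR and LAR1 0.68, and MybPA1 and MYB5a -0.73. LAR1 and LAR2 then had r = -0.55, and MYB5a and MYB5b 0.47, against -0.80 before the means were subtracted. These last values include the difference between exposed and control samples.

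The genes most like each member over the 23 samples were, where the sources annotate them, a phenylalanine ammonia-lyase for MybPA1 (Vv06s0004g02620, r = 0.93), a PAP/fibrillin gene for LAR2 (Vv04s0008g02640, r = 0.99) and Vv07s0130g00510, described only as related to transcription factors, for MYB5b (r = 0.96). Phenylalanine ammonia-lyase makes the first committed step from phenylalanine to phenolic compounds. With log2(FPKM + 1) the first and the last of these were again ranked 1 of 20204 for their member, and within stages the correlations were 0.68, 0.67 and 0.75.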

How the data were processed

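The deposited values are FPKM per gene, which the authors computed with Cufflinks from reads processed with CASAVA 1.8.2 and aligned with TopHat to the V1 grapevine genome. They sequenced poly(A) RNA and left out 1 EL38 control sample as an outlier. The 9 genes and all gene lists were chosen with earlier results of these data known. Groups were taken from the labels. log2(FPKM + 0.1) was fitted with limma 3.58.1 in R 4.3.3, with 1 mean per group, eBayes with a trend, 15 residual degrees of freedom, and Benjamini-Hochberg adjustment within each contrast; the authors' CuffDiff needs aligned reads. Relative depth came from FPKM under 0.06 in 211 of 253 pairs of samples and is approximate. FPKM carry no counts, so no counting intervals are given, and precision is the spread between samples. Genes named beyond the 9 are those annotated among the 3 most correlated with each member, and those called in a pathway list, at most 4 a list. In simulated data, 56 of 100 genes changed by 1 and 81 of 100 changed by 2 on the log2 scale at EL34 were called, and 5 of 20005 unchanged genes. Changes below 1, the size of the exposure differences of the 9 genes with all samples, were not simulated. Other pseudocounts, filters, scalings, blocks and sample sets were tried. Figures were drawn with matplotlib 3.10.9. The RefSeq annotation given, ASM3070453v1, is not the V1 build and holds 6 of the 9 names; no coordinate or sequence from it was used.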

Additional observations from a re-analysis of the deposited data

How the results depend on the processing

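The number of the 9 genes called kept within 1.5 times its value for every stage change under the other pseudocount, the other filters and median-of-ratios scaling, and so did the numbers called for exposure; a term for the last digits of the sample number within each treatment, run for stage changes only, moved none past that. Quantile normalization took EL33 against EL31 in exposed berries from 8 to 5. The replicate numbers did not pair the samples: deviations of same-numbered exposed and control samples had r from -0.03 to 0.15 over 11 pairs, with 1 over 0.1. With the replicate block, 2 genes were called at EL34 and 2 at EL38, in place of 1 each (MybPA1 at EL34 was 0.96, adjusted p = 0.0388, and LAR1 at EL38 -0.73, adjusted p = 0.0459); the other counts stayed within 1.5 times. With a term for the range of the sample number at each stage, 0 genes were called at EL34 and 4 for EL34 against EL33 in exposed berries. At EL38 that term sets exposed 1 alone against the control samples, so no count is given for exposure there. Each stage fitted alone gave 0 at EL34 and 0 at EL38, where the spread came from the samples of 1 stage only.

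Without the samples rich in seed storage transcripts (EL33 control 1, EL34 exposed 2 and 3; chosen after seeing the data, as were EL33 exposed 1 and 3; each leaves a group of 1), 0 genes were called at EL34, 1 on average over the stages (LAR2) and 4 for EL34 against EL33 in exposed berries. Leaving out 1 sample at a time gave 0 to 1 gene at EL33, 0 to 2 at EL34, 0 to 2 at EL38, 0 to 1 for the difference between stages and 5 to 9 for EL38 against EL34 in control berries, the lowest without EL38 control 2. A group of 1 was assumed to vary like the other groups. The cause of these changes was not tested.

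Signs changed only for log2 fold changes that were not called. Without EL33 exposed 1 and 3, exposed against control at EL33 was -0.10 for MybPA2, -0.27 for DFR and -0.14 for LAR1, DFR was -0.057 on average, and MYB5b was 0.14 for EL33 against EL31 in exposed berries. That value of MYB5b was 0.043 with median-of-ratios scaling, 0.082 after quantile normalization and -0.10 to 0.061 with 1 sample left out. With the sample number term, MYB5b was -0.0089 for EL33 against EL31 and MYB5a 0.071 for EL34 against EL33 in control berries, and MybPA1 was -0.072 for EL34 against EL33 in exposed berries (-0.095 without the samples rich in seed storage transcripts). With 1 sample left out, exposed against control ranged from -0.033 to 0.29 for DFR at EL33, and at EL34 from -0.16 to 0.037 for MybPA2, -0.012 to 0.084 for DFR, -0.030 to 0.16 for LDOX and -0.48 to 0.18 for ANR. On average over the stages it ranged from -0.0019 to 0.084 for DFR and from -0.12 to 0.042 for ANR, and MYB5b ranged from -0.013 to 0.095 for EL33 against EL31 in control berries.

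Counts over all genes moved more. At EL31, EL33, EL34 and EL38 the 945, 706, 673 and 967 calls became 1274, 1232, 1088 and 1275 with the replicate block, 677, 406, 413 and 97 with the sample number term, and 755, 8, 76 and 50 with each stage alone. With 1 sample left out they were 523 to 1026 at EL31, 248 to 997 at EL33 and 314 to 1221 at EL38, and 1.74% to 3.80% of genes at EL34, where 3.33% were called with all samples. EL33 fell to 237 calls without EL33 exposed 1 and 3. Without the samples rich in seed storage transcripts, EL33 gave 349 and EL34 213. The averaged 2532 calls became 1533 with the sample number term. The 424 calls for a difference between stages became 828, 55 and 685 with the block, the sample number term and log2(FPKM + 1), 229 without the samples rich in seed storage transcripts, and 185 to 952 with 1 sample left out. For EL33 against EL31 in exposed berries, 6521 became 4111 without EL33 exposed 1 and 3, and for EL38 against EL34 in exposed berries 11060 became 7286 with the sample number term. The values have no counts behind them, so depth limits the low ones (MybPA2 and LAR1 at EL38) to an unknown degree.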
